A study of Mus musculus with 12 samples.

Results

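The collagen genes of the mouse brain were taken as every protein-coding gene of the GENCODE annotation whose name has the form Col, number, a, number, which selected 44 of 22028 protein-coding genes and of 55536 genes in all. By the structure of the protein they fall into 11 fibrillar chains, 6 basement membrane chains (type IV), 6 type VI chains, 9 FACIT chains (fibril-associated collagens with interrupted triple helices), 4 transmembrane chains and 8 others, a group that holds the network-forming, anchoring and basement membrane zone chains of types VII, VIII, X, XV, XVIII, XXVI and XXVIII. RNA-Seq was done on cerebella and cerebral cortices that came from WT or *Snx14*-KO animals aged 1 month, with 3 libraries for each tissue and genotype and 1 mouse behind each pair of tissue libraries, 12 libraries in all. *Snx14*-KO mice were homozygous for a single-base frameshift deletion in *Snx14* that Cas9 introduced on the C57BL/6J background, so the line rests on 1 deletion allele present in every cell. WT mice were the controls, and the labels give no sex for any mouse.

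Counts on genes summed to between 16672589 and 19887427 per library, and no 2 libraries of a group were identical. *Snx14* itself was at 67.7 ± 2.59 CPM (counts scaled to library size; SD, n = 3) in WT and 11.4 ± 0.552 in *Snx14*-KO cerebella, and at 53.6 ± 3.06 and 7.68 ± 0.404 in the cortices. The 10 cerebellar neuron markers summed to 5359.8 to 6918 TPM (a level scaled to gene length and library size) in cerebella and 169.7 to 217 in cortices. The 10 forebrain neuron markers summed to 6124 to 7061 TPM in cortices and 373 to 625 in cerebella. Some libraries stood apart in ways that bear on collagens, and the results they touch are given with these values. *Snx14*-KO cortex replicate 2 had high meningeal markers, WT cerebellum replicates 1 and 3 were the extremes of choroid plexus markers, and *Snx14*-KO cerebellum replicates 1 and 3 had high *Nrgn*.

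Collagens are extracellular proteins built from 3 chains wound into a triple helix, and most chains can assemble only with particular partners. Fibrillar collagens give tensile strength to connective tissue such as the meninges, type IV collagens form the sheet of every basement membrane, type VI collagens form beaded filaments at the boundary between cells and matrix, FACIT collagens coat fibrils, and transmembrane collagens stay anchored in the plasma membrane and can be shed. Brain parenchyma holds little fibrillar collagen, and most collagen in the brain lies in the meninges, the walls of blood vessels and the choroid plexus. In bulk tissue, a lower or higher count cannot tell fewer or more cells of a type from less or more RNA per cell.

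Collagen RNA was a small share of either tissue. The 44 chains took 0.0433% to 0.0514% of gene counts in WT cerebella, 0.0599% to 0.0667% in *Snx14*-KO cerebella, 0.0266% to 0.0335% in WT cortices and 0.0271% to 0.0515% in *Snx14*-KO cortices. Per length, the chains summed to 217.5, 247.5 and 273.9 TPM in the WT cerebella and to 302.8, 323.7 and 289.9 TPM in the *Snx14*-KO cerebella. All 3 *Snx14*-KO cerebella were above all 3 WT cerebella. In cortex the sums were 153, 123 and 133 TPM in WT and 146, 233 and 126 TPM in *Snx14*-KO mice, so only replicate 2 of the *Snx14*-KO cortices stood above the WT range. Each library held a count for 43 or 44 of the 44 chains.

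In WT cerebella, FACIT chains made up 34.8% ± 0.602 (SD, n = 3) of the summed TPM, the other chains 26.5% ± 3.05, fibrillar chains 17.5% ± 2.32, basement membrane chains 9.94% ± 0.502, transmembrane chains 7.27% ± 1.40 and type VI chains 3.98% ± 0.502. A pair of chains dominated. *Col9a3*, a chain of the FACIT collagen IX known from cartilage, was at 51.6, 59.1 and 72.7 TPM. *Col18a1*, the basement membrane proteoglycan whose end is released as endostatin, was at 45.6, 44.2 and 34.9 TPM. Next came *Col9a2*, a partner chain of *Col9a3*, at 14.3 to 14.9 TPM and *Col23a1*, a transmembrane chain, at 13.1 to 16.0 TPM, whose ranges overlapped. *Col9a1*, the remaining chain of collagen IX, was at only 0.327 to 0.846 TPM.

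WT cortices had a flatter spectrum, with FACIT chains at 24.1% ± 1.63 of the summed TPM, fibrillar chains at 19.6% ± 1.43, type VI chains at 18.2% ± 0.774, basement membrane chains at 18.0% ± 1.09, transmembrane chains at 13.5% ± 0.744 and the other chains at 6.59% ± 0.432 (SD, n = 3 each). The highest chain was *Col6a1*, a chain of type VI filaments, at 21.2, 19.1 and 18.7 TPM. *Col4a2*, the partner of *Col4a1* in the basement membrane of vessels, followed at 13.9, 10.5 and 13.3 TPM, and *Col25a1*, a neuronal transmembrane collagen also found in amyloid plaques, at 14.5, 10.8 and 11.2 TPM. *Col9a3* was at 9.59 to 9.89 TPM and *Col4a1* at 8.11 to 12.1 TPM. In this order *Col4a2* overlapped *Col25a1* and *Col9a3* overlapped *Col4a1*, while every *Col25a1* library lay above every *Col9a3* library and *Col6a1* lay above all the others. The plot of class sums shows these levels beside those of the *Snx14*-KO libraries.

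**Figure D1:**
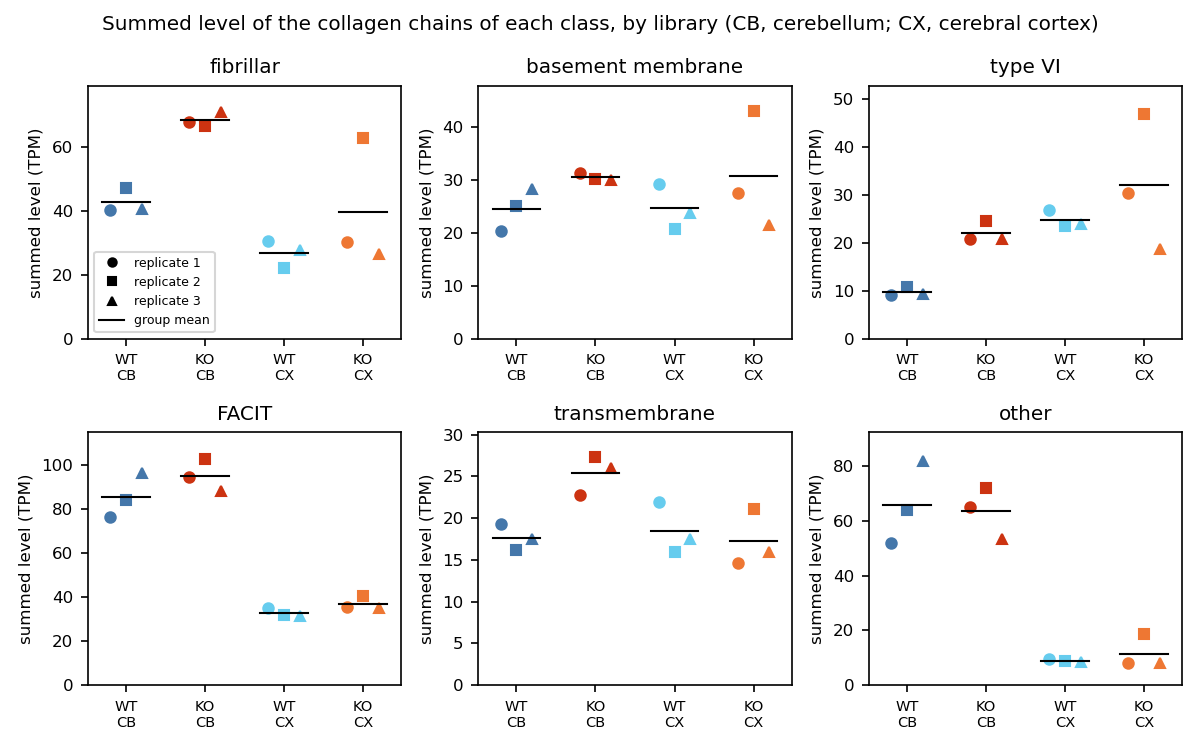
Summed level of the chains of each collagen class (y axis, TPM) in each library, by tissue and genotype (x axis: CB, cerebellum; CX, cerebral cortex); symbols mark replicates 1 to 3 and lines the group means. Fibrillar chains summed to 40.5 to 47.1 TPM in WT and 66.7 to 71.0 TPM in *Snx14*-KO cerebella, and *Snx14*-KO cortex replicate 2 lies above the other cortices in the fibrillar, basement membrane, type VI, FACIT and other panels.

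The 2 tissues were compared in WT mice with edgeR's quasi-likelihood test over all genes, where a call needed both a Benjamini-Hochberg adjusted p under 0.05 and a log2 fold change beyond 0.5 in size. Of 42 chains tested, 33 were called, 19 higher and 14 lower in cerebellum, where 19% and 21.4% of all genes tested were called in those directions. Of 11 fibrillar chains, 6 were higher and 2 lower in cerebellum. The 6 basement membrane chains divided into 4 higher and 1 lower, the 9 FACIT chains into 2 higher and 5 lower, and the 4 transmembrane chains into 3 higher and 1 lower. No type VI chain was called higher, and 3 of 5 were lower.

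The largest difference was that of *Col18a1*, with 2.52 ± 0.414 CPM (SD, n = 3) in WT cortex and 88.3 ± 14.6 CPM in WT cerebellum, a 35.0-fold difference (log2 fold change 5.13, SE 0.163, adjusted p = 1.67e-09 by edgeR). *Col17a1*, an epithelial adhesion chain of hemidesmosomes, had a log2 fold change of 3.43 (SE 0.392) and *Col2a1*, the major fibril chain of cartilage, one of 3.42 (SE 0.248). *Col9a3* was 5.99-fold higher in cerebellum (log2 fold change 2.58, SE 0.113, adjusted p = 1.65e-08 by edgeR). At the other end, *Col25a1* had 49.5 ± 6.93 CPM in WT cortex and 1.66 ± 0.667 CPM in WT cerebellum (SD, n = 3), a log2 fold change of -4.90 (SE 0.205, adjusted p = 1.14e-08 by edgeR). *Col24a1*, a minor fibrillar chain, had a log2 fold change of -3.98 (SE 0.383) and *Col6a4*, a type VI chain, one of -3.46 (SE 0.586). For each of these chains, the 3 libraries of one tissue lay wholly above those of the other. The fold changes of *Col17a1*, *Col24a1* and *Col6a4* rest on few counts in the lower tissue. *Col17a1* had 6, 6 and 3 counts in the WT cortices. The WT cerebella had 2, 4 and 5 counts of *Col24a1* and 1, 1 and 3 of *Col6a4*.

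Chains that assemble with each other differed by unequal amounts, and in collagen V *Col5a1* had -0.34 (SE 0.136) where *Col5a3* had 2.54 (SE 0.289). *Col6a1* was 3.40-fold lower in cerebellum (log2 fold change -1.77, SE 0.161), while *Col6a2*, its obligate partner, had -0.70 (SE 0.171) and *Col6a3*, the third chain of the classic type VI filament, had -0.49 (SE 0.372) and did not pass. *Col4a1* had -0.16 (SE 0.135, adjusted p = 0.320 by edgeR) and *Col4a2* -0.77 (SE 0.130), although these neighbours on chromosome 8 are transcribed head to head. The minor basement membrane chains *Col4a3*, *Col4a4*, *Col4a5* and *Col4a6* were higher in cerebellum, with log2 fold changes of 3.02, 1.83, 1.56 and 1.24, the last of which lost its call without WT cerebellum replicate 2, WT cortex replicate 2 or WT cortex replicate 3. *Col1a1* and *Col1a2*, which form collagen I, had 0.78 (SE 0.216) and 1.34 (SE 0.167).

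Several chains that were high in cerebellum had the order of the choroid plexus markers across the 3 WT cerebella. *Col8a1* and *Col8a2*, the short chains of the hexagonal network of collagen VIII, were at 0.693, 5.95 and 13.4 TPM and at 2.10, 10.4 and 29.4 TPM in WT cerebella 1, 2 and 3. The 10 choroid plexus epithelium markers, led by *Ttr*, summed to 172, 7050.3 and 20338 TPM in the same libraries, so both orders were the same. *Col4a3* and *Col4a4* had this order too, at 0.309, 0.636 and 1.16 TPM and at 0.358, 0.896 and 1.42 TPM. The order was not particular to these chains, and 3 libraries have few possible orders. *Col9a3*, at 51.6, 59.1 and 72.7 TPM, and *Col4a2*, at 6.86, 7.10 and 9.06 TPM, were among others that shared it. *Col8a2* was called in WT cerebellum against cortex (log2 fold change 3.21, SE 0.729) with each library left out in turn, with 2.10 without WT cerebellum replicate 3. *Col8a1* had 1.92 (adjusted p = 0.0366 by edgeR) and lost its call by DESeq2 (adjusted p = 0.0941), with the mouse as a block (log2 fold change 1.43, adjusted p = 0.104 by edgeR) and without any 1 library other than WT cerebellum replicate 1, down to 0.96 without WT cerebellum replicate 3 (adjusted p = 0.196 by edgeR). *Col6a5*, a type VI chain, was at 2.13 TPM in WT cerebellum replicate 3 and at 0.0192 to 0.323 TPM in the other 5 cerebella. The part of choroid plexus in these differences was not tested.

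**Figure D2:**
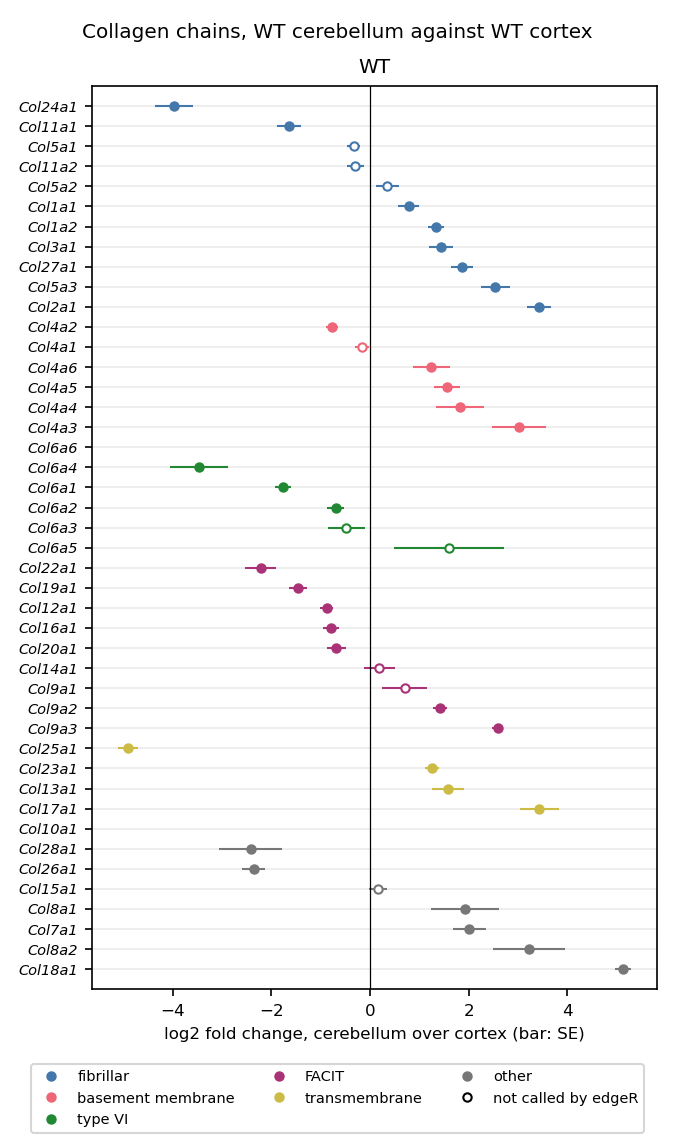
Log2 fold change of each collagen chain in WT cerebellum over WT cortex (x axis; bars, standard error of the edgeR fit), grouped by class and ordered within it; filled points were called and 2 chains without a point had too few counts. *Col18a1* at 5.13 and *Col25a1* at -4.90 mark the ends, and every class but type VI has called chains on both sides of 0.

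Sequence upstream of the transcription start was read for the chains that DESeq2 called in *Snx14*-KO cerebellum in the comparison that follows, to show the promoters of the called chains. RefSeq promoter entries (GRCm38.p6) matched 35 of the 44 chains with 38 start sites. Of the 10 called chains, *Col1a1*, *Col5a2* and *Col12a1* had no entry, and the 250 bases before the start overlap an annotated exon for *Col1a2* and *Col6a1*, which leaves 5. *Col6a2* has a further start whose window overlaps its own exon and is not shown. The window of *Col25a1* lies inside the annotated gene used for the counts (chromosome 3, 130131501 to 130599877, plus strand), not before its first base. In the 5 windows printed here, the last base lies next to the start. Capitals mark the letter strings of the CCAAT box (CCAAT or ATTGG), the TATA box (TATAAA or TTTATA) and the GC box (GGGCGG or CCGCCC). The strings were searched on both strands at any position, and whether they act as promoter elements was not tested.
Col3a1 (chr1:45311288-45311537, plus strand): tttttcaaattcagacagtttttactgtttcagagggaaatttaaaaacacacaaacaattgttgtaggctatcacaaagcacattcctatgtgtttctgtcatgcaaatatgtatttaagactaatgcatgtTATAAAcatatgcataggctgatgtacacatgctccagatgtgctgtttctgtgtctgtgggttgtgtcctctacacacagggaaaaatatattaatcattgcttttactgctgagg
Col6a2 (chr10:76623631-76623880, minus strand): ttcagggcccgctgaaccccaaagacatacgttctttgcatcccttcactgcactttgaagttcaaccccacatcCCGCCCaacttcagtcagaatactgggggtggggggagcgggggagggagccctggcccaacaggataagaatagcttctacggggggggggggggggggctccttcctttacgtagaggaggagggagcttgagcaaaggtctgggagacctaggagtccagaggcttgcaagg
Col6a3 (chr1:90843972-90844221, minus strand): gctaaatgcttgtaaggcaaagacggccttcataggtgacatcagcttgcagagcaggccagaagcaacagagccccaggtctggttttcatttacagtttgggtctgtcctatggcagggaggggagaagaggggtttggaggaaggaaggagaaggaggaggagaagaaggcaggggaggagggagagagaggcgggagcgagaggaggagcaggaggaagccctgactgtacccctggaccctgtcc
Col23a1 (chr11:51289670-51289919, plus strand): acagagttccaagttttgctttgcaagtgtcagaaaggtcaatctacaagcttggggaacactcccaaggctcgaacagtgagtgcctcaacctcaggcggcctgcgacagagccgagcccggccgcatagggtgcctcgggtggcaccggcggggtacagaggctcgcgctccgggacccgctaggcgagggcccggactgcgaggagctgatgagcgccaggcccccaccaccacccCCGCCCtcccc
Col25a1 (chr3:130180595-130180844, plus strand): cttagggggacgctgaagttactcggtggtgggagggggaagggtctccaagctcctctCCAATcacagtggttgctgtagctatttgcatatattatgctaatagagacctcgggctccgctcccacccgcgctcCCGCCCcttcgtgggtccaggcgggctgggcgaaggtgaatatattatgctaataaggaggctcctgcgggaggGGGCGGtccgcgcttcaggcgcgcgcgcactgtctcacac

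The window of *Col3a1* held a TATA string, first base at position -117 from the start, and no CCAAT or GC string. *Col6a2* and *Col23a1* each held 1 GC string, at -175 and -11. *Col25a1* held a CCAAT string at -191 and GC strings at -114 and -40, and *Col6a3* held none of the 3 letter strings. No string occurred in all 5 windows. Over the 38 collagen start sites, a CCAAT string was in 34.2% of windows, a TATA string in 13.2% and a GC string in 57.9%. The shares were 33.8%, 12.4% and 32.7% of 32851 RefSeq windows of the same length.

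The comparison of *Snx14*-KO with WT cerebella asks which genes differ at 1 month in the tissue that the study followed for neurodegeneration. Collagen chains were higher in *Snx14*-KO cerebella in 26 of 38 chains tested, with a median log2 fold change of 0.25, against 49.9% of all genes and a median of -0.00 over them. By class the medians were 1.30 for 4 type VI chains, 0.62 for 10 fibrillar chains, 0.40 for 4 transmembrane chains, 0.29 for 6 basement membrane chains, 0.19 for 8 FACIT chains and -0.00 for 6 other chains. edgeR's quasi-likelihood test called 0 chains and 0.00549% of all genes. It called 8 chains and 1.36% of genes without *Snx14*-KO replicate 2, which leaves the 2 *Snx14*-KO cerebella with high *Nrgn*. Without WT replicate 2 it called 2 chains and 0.0534% of genes. At an unadjusted p under 0.05 there were 15 chains, all higher, where 5.78% of all genes were higher and 2.37% lower. DESeq2 called 10 chains, all higher, where it called 0.841% of all genes higher, and 6 chains without *Snx14*-KO replicate 3 (0.172% of genes in either direction) or without WT replicate 3 (0.367%). Without a filter on low counts, edgeR called the same 10 chains among 1.1% of 31465 genes. In 17 chains all *Snx14*-KO libraries lay above all WT libraries and in 1 chain below them, against 6.99% and 5.25% of genes.

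The fibrillar chains that DESeq2 called higher in *Snx14*-KO cerebella were *Col1a1*, *Col1a2*, *Col3a1* and *Col5a2*. *Col1a1* (chromosome 11, 94936224 to 94953042, plus strand), the main chain of collagen I, was at 12.3, 19.8 and 12.5 CPM in WT and at 27.0, 34.2 and 37.7 CPM in *Snx14*-KO cerebella, a 2.22-fold difference. Its log2 fold change was 1.15 (SE 0.199), with an adjusted p of 0.145 by edgeR and 3.45e-06 by DESeq2. *Col1a2* (chromosome 6, 4504814 to 4541544, plus strand), its partner chain, was at 36.3, 50.2 and 35.5 CPM in WT and at 80.8, 74.1 and 81.1 CPM in *Snx14*-KO cerebella. The log2 fold change was 0.95 (SE 0.126), with an adjusted p of 0.0634 by edgeR and 2.49e-09 by DESeq2. *Col3a1* (chromosome 1, 45311538 to 45349706, plus strand), the chain of collagen III that stiffens vessel walls and skin and whose upstream window is printed above, was at 9.35, 13.3 and 8.15 CPM in WT and at 22.1, 29.2 and 22.4 CPM in *Snx14*-KO cerebella. The log2 fold change was 1.26 (SE 0.194), with an adjusted p of 0.121 by edgeR and 3.90e-07 by DESeq2. For all 3 genes the *Snx14*-KO libraries lay above every WT library.

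*Col5a2*, a chain of collagen V that nucleates collagen I fibrils and lies tail to tail with *Col3a1* on chromosome 1, was at 5.51, 5.73 and 4.70 CPM in WT and at 9.34, 8.02 and 10.8 CPM in *Snx14*-KO cerebella (log2 fold change 0.82, SE 0.166, DESeq2 adjusted p = 0.0278). With 1 library left out, DESeq2 called *Col5a2* only where that library was *Snx14*-KO replicate 2. Its partner *Col5a1* had a log2 fold change of 0.41 (SE 0.122) and *Col11a1*, a related nucleating chain, one of 0.83 (SE 0.272). Neither passed DESeq2, with adjusted p-values of 0.385 and 0.437, though their libraries did not overlap. *Col5a3*, the remaining collagen V chain, was at -0.01 (SE 0.285). The cartilage chain *Col2a1* was the lowest of the class, at -0.33 (SE 0.214), with 7.75, 7.23 and 7.19 CPM in WT and 6.79, 6.86 and 3.98 CPM in *Snx14*-KO cerebella.

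The classic type VI chains had the largest class difference. *Col6a1* (chromosome 10, 76708792 to 76726168, minus strand) was at 7.86, 10.7 and 6.51 CPM in WT and at 18.0, 23.3 and 16.8 CPM in *Snx14*-KO cerebella (log2 fold change 1.21, SE 0.199, adjusted p = 0.134 by edgeR and 7.68e-06 by DESeq2). *Col6a2* (chromosome 10, 76595762 to 76623630, minus strand), transcribed in the same direction beside *Col6a1*, was at 7.52, 7.05 and 5.04 CPM in WT and at 15.6, 19.1 and 16.6 CPM in *Snx14*-KO cerebella. It had a log2 fold change of 1.39 (SE 0.170), with an adjusted p of 0.0634 by edgeR and 6.23e-09 by DESeq2. *Col6a3*, which carries the longest amino-terminal extension of the 3 chains, was at 1.89, 1.39 and 0.962 CPM in WT and at 4.24, 3.78 and 4.61 CPM in *Snx14*-KO cerebella (log2 fold change 1.57, SE 0.281, adjusted p = 0.145 by edgeR and 0.00386 by DESeq2). All 3 were thus between 2.32 and 2.97 times the WT mean, and no *Snx14*-KO library overlapped a WT library. *Col6a1* and *Col6a2* kept the DESeq2 call with each library left out in turn. *Col6a3* lost it without *Snx14*-KO replicate 1, without *Snx14*-KO replicate 3 and without WT replicate 3. Of the alternative chains, *Col6a5* had a log2 fold change of -1.93 (SE 1.27) that became 2.17 without WT cerebellum replicate 3, and *Col6a4* and *Col6a6* had 11 counts or fewer in every cerebellum and were not tested.

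Among FACIT chains, *Col12a1* (chromosome 9, 79598991 to 79718831, minus strand), which coats collagen I fibrils in dense connective tissue, was at 6.43, 7.90 and 6.68 CPM in WT and at 13.0, 16.0 and 16.9 CPM in *Snx14*-KO cerebella. The log2 fold change was 1.13 (SE 0.150), with an adjusted p of 0.0634 by edgeR and 4.22e-06 by DESeq2. *Col16a1*, another fibril-associated chain, had 0.60 (SE 0.157, DESeq2 adjusted p = 0.232). The abundant chains of collagen IX differed little, with 0.11 (SE 0.142) for *Col9a3* and 0.16 (SE 0.109) for *Col9a2*. *Col14a1*, a close relative of *Col12a1*, had the lowest value of the class, -0.62 (SE 0.365).

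No basement membrane chain was called by edgeR or DESeq2, and 1 of 6, *Col4a2*, had an unadjusted p under 0.05. *Col4a1* was at 20.5, 20.5 and 21.9 CPM in WT and at 25.6, 26.1 and 21.7 CPM in *Snx14*-KO cerebella, so the groups overlapped (log2 fold change 0.22, SE 0.106). *Col4a2* was at 14.4, 15.2 and 18.5 CPM in WT and at 22.1, 21.4 and 19.7 CPM in *Snx14*-KO cerebella (log2 fold change 0.39, SE 0.124, adjusted p = 0.404 by edgeR and 0.317 by DESeq2). The 2 genes share 22 bases at their start, and the part of their exons that lies on other genes is 0.295% for *Col4a1* and 0.982% for *Col4a2*. *Col4a5*, whose gene lies beside *Col4a6*, was the highest of the class at 0.44 (SE 0.205), with 7.63, 14.1 and 12.1 CPM in WT and 14.6, 14.3 and 16.9 CPM in *Snx14*-KO cerebella. All 3 *Snx14*-KO libraries lay above WT for *Col4a5*, and *Col4a3*, at -0.19 (SE 0.470), was the lowest.

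Among transmembrane and other chains, differences stood beside levels close to WT. *Col23a1* was at 29.1, 24.3 and 23.8 CPM in WT and at 32.2, 43.4 and 36.4 CPM in *Snx14*-KO cerebella (log2 fold change 0.53, SE 0.128, adjusted p = 0.248 by edgeR and 0.0303 by DESeq2). With 1 library left out, DESeq2 called *Col23a1* only where that library was replicate 1 of *Snx14*-KO or of WT. *Col25a1* was at 1.20, 2.53 and 1.47 CPM in WT and at 9.09, 2.27 and 8.93 CPM in *Snx14*-KO cerebella. The groups overlapped because replicate 2 of the *Snx14*-KO cerebella was within the WT range. The log2 fold change of 1.97 (SE 0.502) had an adjusted p of 0.295 by edgeR and 0.00423 by DESeq2. With 1 library left out, DESeq2 called *Col25a1* only where that library was replicate 2 of *Snx14*-KO or of WT. *Col26a1* was at 0.861, 1.02 and 0.962 CPM in WT and at 2.65, 1.10 and 2.30 CPM in *Snx14*-KO cerebella, with replicate 2 again the lowest of the *Snx14*-KO libraries but above WT (log2 fold change 1.09, SE 0.377, DESeq2 adjusted p = 0.525). *Col18a1*, the highest chain by count, was at 0.06 (SE 0.128), and *Col8a1* and *Col8a2* were at -0.50 (SE 0.729) and -0.31 (SE 0.674).

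**Figure D3:**
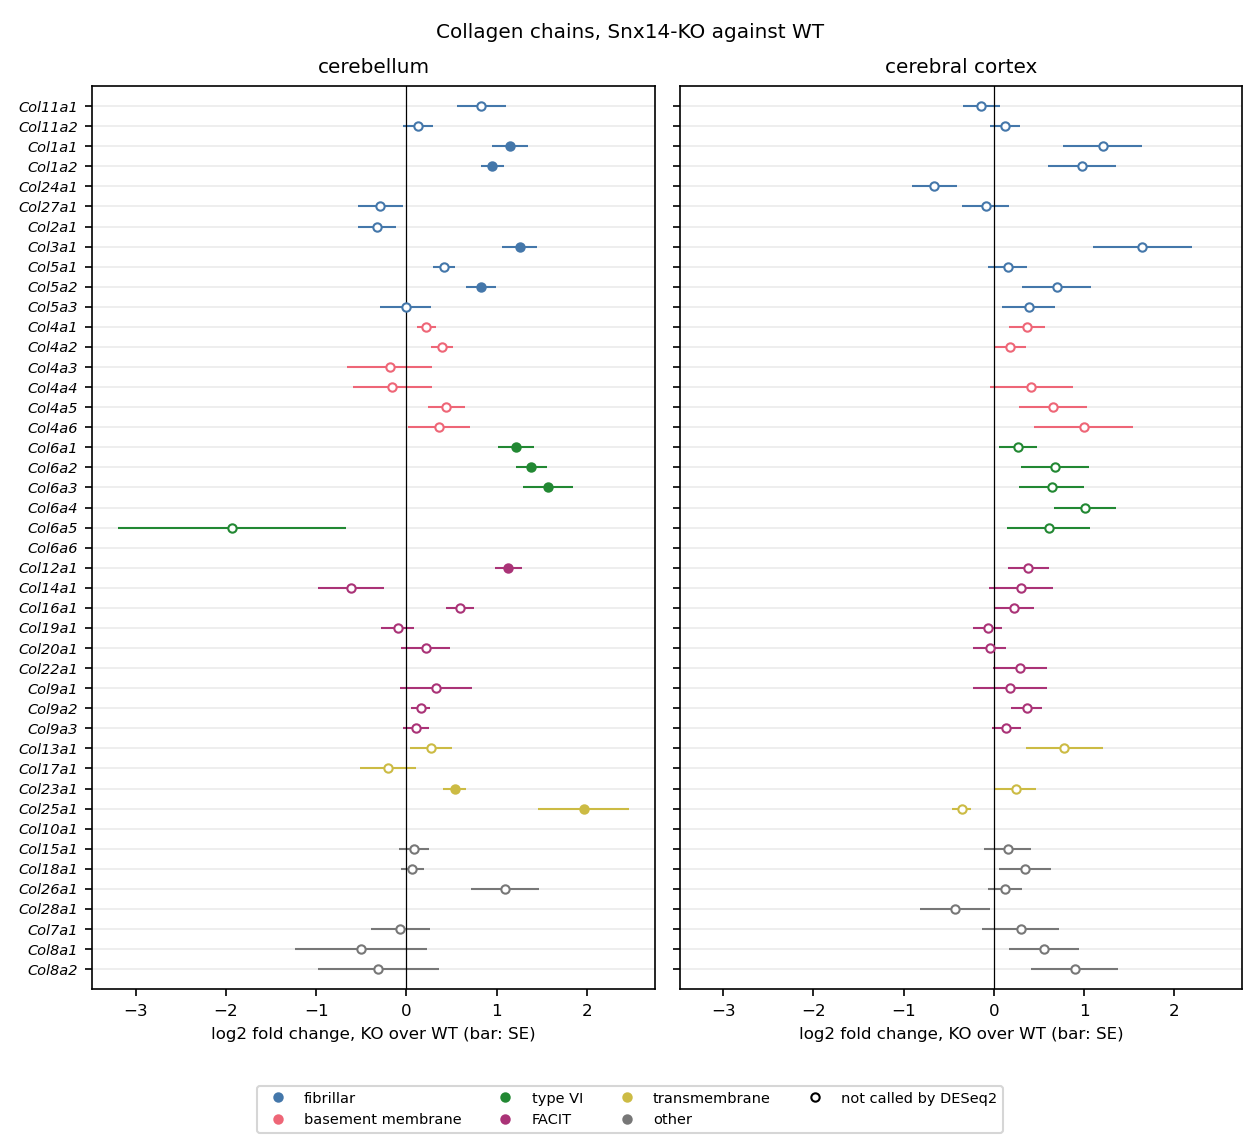
Log2 fold change of each collagen chain in *Snx14*-KO over WT cerebellum (left) and cerebral cortex (right; x axis, bars are the standard error of the edgeR fit), by class; filled points were called by DESeq2 and chains without a point had too few counts in that tissue. The 10 filled points are all in cerebellum and all above 0, and edgeR called no chain in either tissue.

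**Figure D4:**
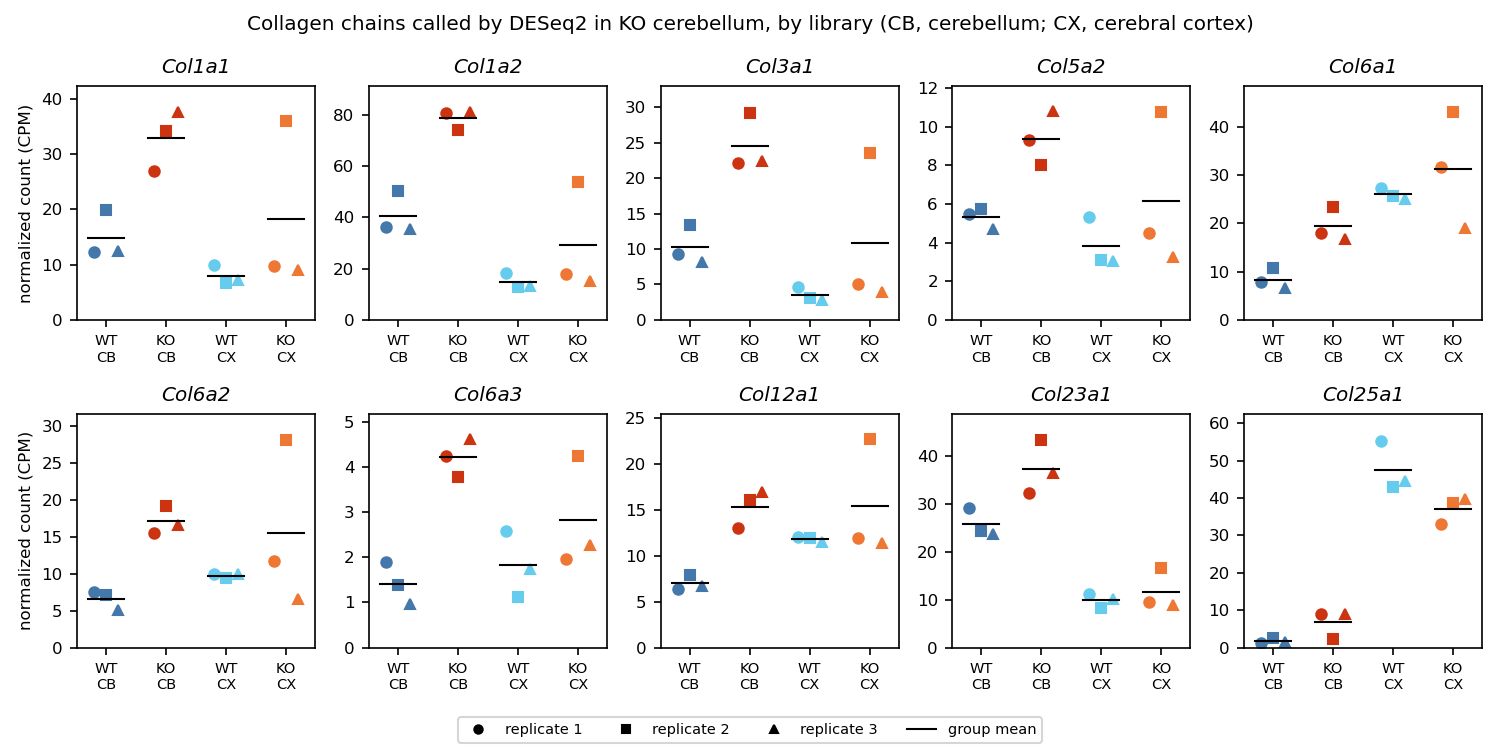
Normalized count (y axis, CPM, normalized within each tissue) in each library of the 10 chains that DESeq2 called in *Snx14*-KO cerebellum, by tissue and genotype (CB, cerebellum; CX, cerebral cortex); symbols mark replicates 1 to 3 and lines the group means. All *Snx14*-KO cerebella lie above all WT cerebella except for *Col25a1*, and in cortex *Snx14*-KO replicate 2 is the highest library for every chain but *Col25a1*.

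Marker lists of other cell types were read in the same cerebella. The 21 meningeal fibroblast markers, none of them a collagen, summed to 195, 370 and 330.1 TPM in WT and to 511, 461 and 534 TPM in *Snx14*-KO cerebella, with no overlap. All 21 had a positive log2 fold change (median 1.01), 16 of them with an unadjusted p under 0.05, and DESeq2 called 9 and edgeR 0. The shares of all genes higher by these rules were 5.78% at the unadjusted p and 0.841% by DESeq2, and 2.37% were lower at the unadjusted p. The 10 mural cell markers summed to 162, 207 and 184 TPM in WT and to 262, 244 and 258 TPM in *Snx14*-KO cerebella, with 1 called by DESeq2, 0 by edgeR and 3 at an unadjusted p under 0.05, and the 10 endothelial markers to 147, 172 and 173 TPM in WT and to 189.6, 216 and 173 TPM in *Snx14*-KO cerebella, with 0 called by DESeq2, 0 by edgeR and 2 at an unadjusted p under 0.05. The 10 cerebellar neuron markers had 0 positive log2 fold changes (median -0.21), 3 of them with an unadjusted p under 0.05 and 0 called by edgeR or DESeq2. The choroid plexus markers had no positive log2 fold change among 10, with 0 called by edgeR or DESeq2 and 0 at an unadjusted p under 0.05. The part of these cell types in the collagen differences was not tested.

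The forebrain gene *Nrgn* was at 280.1 and 278 TPM in *Snx14*-KO cerebellum replicates 1 and 3 and at 4.68 to 20.4 TPM in the other 4 cerebella. *Lhx2* was at 2.00 and 3.07 TPM in the same pair and at 0.0419 to 0.127 TPM elsewhere, while *Emx1*, a gene of the forebrain, was at 0.293 and 0.257 TPM in that pair and at 0.171 to 1.35 TPM in the other 4 cerebella. These 2 libraries were the highest cerebella for 9 of the 38 chains tested, and for 10.6% of all genes. The 9 were *Col25a1*, *Col26a1*, *Col11a1*, *Col1a2*, *Col5a1*, *Col5a2*, *Col6a3*, *Col16a1* and *Col4a5*, and the other 29 included *Col1a1*, *Col3a1*, *Col6a1*, *Col6a2*, *Col12a1*, *Col23a1* and *Col4a2*. With *Snx14*-KO replicate 2 as the only *Snx14*-KO cerebellum, and on the assumption that this lone library varies like the others, *Col6a2* had a log2 fold change of 1.54, *Col3a1* of 1.50 and *Col6a1* of 1.48, and DESeq2 called these 3 among 0.0781% of genes. *Col25a1* had 0.38 and *Col26a1* 0.21.

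**Figure D5:**
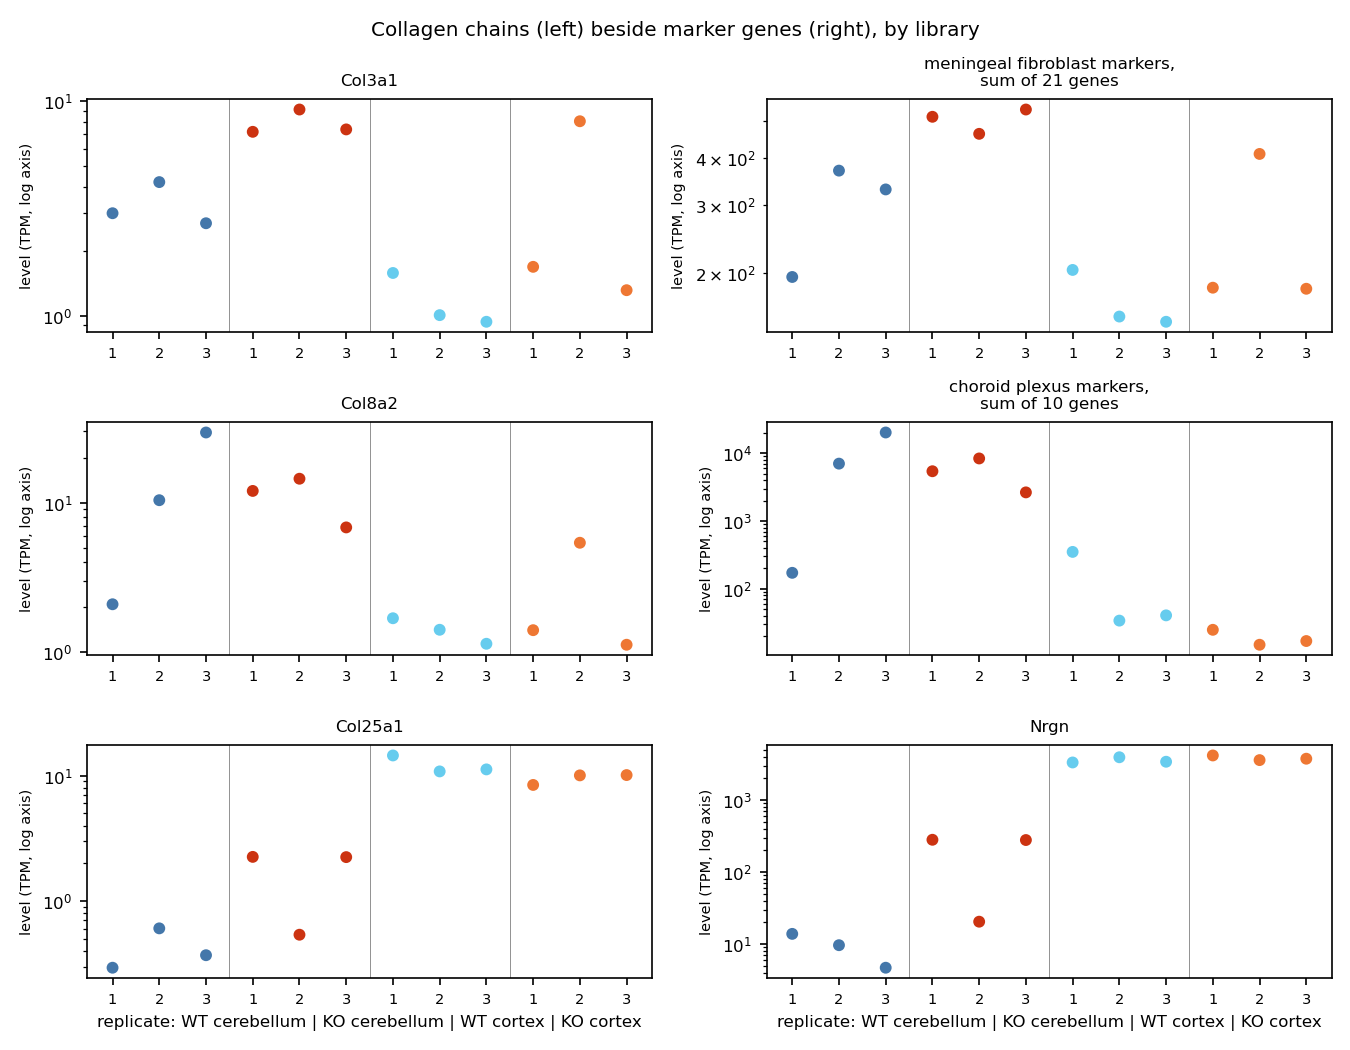
Level in each of the 12 libraries (y axis, TPM on a log axis; x axis, replicates 1 to 3 of each group) of *Col3a1*, *Col8a2* and *Col25a1* on the left and, on the right, of the summed meningeal fibroblast markers, the summed choroid plexus markers and *Nrgn*. *Col3a1* and the meningeal sum are high in the 3 *Snx14*-KO cerebella and in *Snx14*-KO cortex replicate 2, *Col8a2* is lowest and highest among cerebella in the same WT libraries as the choroid plexus sum, and *Col25a1* among cerebella is high in the 2 *Snx14*-KO libraries with high *Nrgn*.

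In cerebral cortex, the tissue set beside cerebellum, 0 collagen chains were called by edgeR, which called 0.00548% of all genes, or by DESeq2, which called 0.0558%. At an unadjusted p under 0.05, 4 of 39 chains were higher and 2 lower, where 2.24% and 2.26% of all genes were. The median log2 fold change was 0.30, against 0.00 over all genes (50% above 0), with 32 chains above 0. A single library carried this median: 28 of 39 chains (71.8%) were highest in *Snx14*-KO cortex replicate 2, against 23.5% of all genes, and without it the median was -0.04. *Snx14*-KO cortex replicate 2 also had 409 TPM of meningeal fibroblast markers, against 149 to 203 TPM in WT and 181 and 183 TPM in the other *Snx14*-KO cortices, and all 21 markers had a positive log2 fold change in cortex, 9 at an unadjusted p under 0.05. The part of meningeal tissue in the cortical values was not tested.

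*Col1a1* was at 9.84, 6.66 and 7.27 CPM in WT and at 9.67, 36.0 and 8.96 CPM in *Snx14*-KO cortices (log2 fold change 1.21, SE 0.435, and 0.23 without replicate 2). *Col1a2* was at 18.3, 12.9 and 13.1 CPM in WT and at 18.0, 53.9 and 15.1 CPM in *Snx14*-KO cortices (0.98, SE 0.378, and 0.16 without replicate 2). *Col3a1* was at 4.57, 3.02 and 2.82 CPM in WT and at 5.01, 23.5 and 3.91 CPM in *Snx14*-KO cortices (1.65, SE 0.551, and 0.36 without replicate 2). For these fibrillar chains the other *Snx14*-KO cortices were within or close to the WT range. *Col6a1*, *Col6a2* and *Col12a1* had log2 fold changes of 0.27, 0.68 and 0.38 with all libraries, and of -0.04, -0.09 and -0.02 without that replicate. *Col4a1* went from 0.37 to 0.06. Without the filter on low counts, edgeR called *Col1a1*, *Col1a2*, *Col3a1* and *Col6a2* higher in *Snx14*-KO cortex, with 0.472% of 31561 genes called.

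In cortex, 3 chains had both non-overlapping libraries and an unadjusted p under 0.05, and *Snx14*-KO replicate 2 was the extreme library of none of them. *Col25a1* was at 55.2, 42.9 and 44.6 CPM in WT and at 33.0, 38.6 and 39.7 CPM in *Snx14*-KO cortices (-0.36 as a log2 fold change, SE 0.108). *Col24a1* was at 3.09, 2.46 and 3.96 CPM in WT and at 2.15, 2.05 and 1.82 CPM in *Snx14*-KO cortices (-0.66, SE 0.248). *Col6a4* was at 1.32, 0.615 and 1.19 CPM in WT and at 2.75, 1.68 and 1.93 CPM in *Snx14*-KO cortices (1.01, SE 0.344). None passed adjustment, with adjusted p = 0.996 for each by edgeR. With *Col5a3* and *Col9a2*, 3 chains lay wholly above WT and 2 wholly below it, against 4.51% and 4.74% of genes.

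Whether the genotype difference itself differed between cerebellum and cortex was tested over all 12 libraries, which were taken as separate although each mouse gave a cerebellum and a cortex. With each mouse as a block, edgeR likewise called 0 chains. Of 42 chains, 0 were called by edgeR and 0 by DESeq2, where the former called 0% of all genes and the latter 0.186%. At an unadjusted p under 0.05, 6 chains had a more positive difference in cerebellum and 0 in cortex, where 3.97% and 1.71% of all genes did. The 6 were *Col25a1*, with a difference in log2 fold change of 2.32 (SE 0.503, adjusted p = 0.242 by edgeR), *Col24a1* with 2.10 (SE 0.579) on 2 to 19 counts in each cerebellum, where it had been too low to test, *Col11a1* with 0.95, *Col26a1* with 0.95, *Col6a1* with 0.94 and *Col12a1* with 0.73. All 6 were called higher in WT cortex than in WT cerebellum, from 1.84-fold for *Col12a1* to 30.0-fold for *Col25a1*. Of all genes tested between the WT tissues, 21.4% were called in that direction. The same WT libraries enter both comparisons with opposite signs, so the 2 results are not independent. Without *Snx14*-KO cerebellum replicates 1 and 3, the libraries with high *Nrgn*, the log2 fold change within cerebellum went from 1.97 to 0.38 for *Col25a1*, from 1.09 to 0.21 for *Col26a1* and from 0.83 to 0.44 for *Col11a1*, while *Col6a1* went from 1.21 to 1.48 and *Col12a1* from 1.13 to 1.19. *Col1a1*, *Col1a2*, *Col3a1* and *Col6a2* had differences of -0.07, -0.04, -0.40 and 0.70 with all libraries, and of 0.90, 0.77, 0.88 and 1.46 without *Snx14*-KO cortex replicate 2, where edgeR again called 0 chains and 0% of genes. Without that library the median over the 42 chains went from -0.04 to 0.33. Without a filter on low counts, edgeR called 5 chains and 1.21% of genes: *Col25a1* and *Col6a1* were more positive in cerebellum, and *Col8a1*, *Col8a2* and *Col6a5* in cortex. It called *Col25a1* without *Snx14*-KO cerebellum replicate 2 (2.72), which leaves the 2 *Snx14*-KO cerebella with high *Nrgn* and where 1.3% of genes were called, and *Col25a1* (2.75) and *Col12a1* (1.10) without both libraries of that mouse, where 1.26% were.

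Genes that make, bind or degrade collagen were counted from lists of genes with these known roles, to be read against the shares of all genes that were higher in cerebellum, 5.78% at an unadjusted p under 0.05 and 0.841% by DESeq2. Of 20 synthesis enzymes and chaperones tested in cerebellum, 1 was higher at an unadjusted p under 0.05, the lysyl hydroxylase *Plod2*, from 11.7 ± 0.510 to 14.9 ± 1.96 CPM (SD, n = 3), and DESeq2 and edgeR called 0. Of 11 procollagen proteinases and crosslinking enzymes, 0 passed by either tool or at that unadjusted p. Of 10 collagen receptors, 4 were higher at that p, edgeR called 0 and DESeq2 called 2. These were *Mrc2*, the endocytic receptor that takes up collagen fragments, from 8.82 ± 1.94 to 19.0 ± 1.23 CPM (log2 fold change 1.11, SE 0.163, DESeq2 adjusted p = 3.38e-06), and *Ddr2*, a receptor kinase for fibrillar collagen, from 12.5 ± 1.75 to 19.3 ± 1.44 CPM (0.62, SE 0.134, DESeq2 adjusted p = 0.0211). Of 8 collagen-degrading enzymes and their inhibitors, 3 were higher at that p, *Timp2*, *Ctsk* and *Timp1*, and edgeR and DESeq2 called 0. In cortex, no gene of these 4 lists was called by either tool, with 4 higher and 1 lower at an unadjusted p under 0.05, where 2.24% and 2.26% of all genes were. Between WT tissues, 9 of 20 synthesis genes were called higher and 2 lower in cerebellum, 9 of 11 processing genes higher and 0 lower, 2 of 10 receptors higher and 0 lower, and 2 of 7 degradation genes higher and 1 lower, against 19% and 21.4% of all genes. Among those higher were *Serpinh1*, the collagen chaperone of the endoplasmic reticulum (log2 fold change 1.26, SE 0.103), and *Sparc*, a collagen-binding matricellular protein (2.87, SE 0.116).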

How the data were processed

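RNA was sequenced from 12 libraries of 1-month-old mouse cerebellum and cerebral cortex, grouped by the tissue and genotype in the labels. According to the study's methods and the file headers, the authors aligned trimmed reads to GRCm38 (STAR), counted pairs per gene with featureCounts (Subread 2.0.1) and deposited these counts without normalization. Strand was ignored, and a pair on several genes was counted for each, which involves at most 6.07% of the exon bases of any collagen chain. The deposited exon length of each gene was used only to compute TPM. Gene totals were 16672589 to 19887427 per library, so counts under about 10 per chain limit precision. Numbered features and spike-ins were left out (0.0506% to 0.0632% of the gene total, and 0 counts).

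Genes passing edgeR's filterByExpr (edgeR 4.0.16, R 4.3.3) were TMM-normalized and compared with the quasi-likelihood test with Benjamini-Hochberg adjustment, within each tissue, between WT tissues, and over all groups for the difference of genotype effects. The SE is the log2 fold change divided by the square root of its F statistic. DESeq2 1.42.0, the tool of the study, was the alternative tool. Each fit was tested on simulated data with known changes. Other alternatives were DESeq2 size factors within edgeR, no filter, a replicate block and each library left out. Chains and lists were chosen with earlier results of these data known. Genes were named singly if they were *Snx14*, 1 of 6 marker chains, among the 4 highest WT chains of a class, called or under an unadjusted p of 0.05, or a class extreme; the remaining chains were added after their values were seen, as partners of a named chain. The same-numbered WT cerebellum and cortex come from the same mouse per the labels (correlations of their deviations 0.0684 to 0.115). The labels make the replicates separate mice, so p-values measure the spread between these mice.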

Additional observations from a re-analysis of the deposited data

How the results depend on the processing

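The count of collagen chains called between WT tissues stayed at 33 to 34 or fell to 32 (DESeq2, or a replicate block for the mouse) and ranged from 31 to 33 with 1 library left out. In *Snx14*-KO cerebellum the edgeR count of 0 became 10 by DESeq2, 10 without a filter on low counts, and 0 to 8 with 1 library left out. The DESeq2 count of 10 ranged from 6 to 9 with 1 library left out and was 3 with *Snx14*-KO replicate 2 as the lone *Snx14*-KO library, both chosen after seeing the data. In cortex the count of 0 became 4 without a filter. The difference of genotype effects went from 0 to 5 chains without a filter, 0 to 1 with 1 library left out and 2 without both libraries of *Snx14*-KO mouse 2. The cause of these changes was not tested. The median log2 fold change ranged from 0.23 to 0.40 in cerebellum and from -0.0443 (without *Snx14*-KO replicate 2) to 0.47 in cortex with 1 library left out. Same-numbered *Snx14*-KO and WT libraries are different mice, with correlations of their deviations from -0.0614 to 0.0725, and a replicate block by number called 0 chains in both tissues. For the difference of effects the replicate block was the mouse over its 2 tissues and also called 0 chains. The block by number turned *Col8a2* (-0.31 to 0.20) and *Col5a3* (-0.00704 to 0.00655) in cerebellum, and the block by mouse turned the difference of effects for *Col1a1* (-0.07 to 0.20), *Col1a2* (-0.04 to 0.17) and *Col11a2* (-0.00519 to 0.00494).

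Within each tissue and between WT tissues, these chains turned direction when 1 library was left out. In cerebellum these were *Col17a1* (-0.42 to 0.0271), *Col18a1* (-0.0731 to 0.14), *Col20a1* (-0.10 to 0.40), *Col4a3* (-0.54 to 0.35), *Col6a5* (-2.61 to 2.17), *Col8a1* (-1.04 to 0.46), *Col8a2* (-0.82 to 0.80), *Col9a3* (-0.0319 to 0.22), *Col4a4* (-0.53 to 0.31), *Col5a3* (-0.22 to 0.31), *Col7a1* (-0.34 to 0.17) and *Col9a1* (-0.01 to 0.57). In cortex they were *Col12a1* (-0.0193 to 0.56), *Col15a1* (-0.22 to 0.33), *Col16a1* (-0.14 to 0.41), *Col19a1* (-0.19 to 0.12), *Col23a1* (-0.11 to 0.41), *Col4a2* (-0.0489 to 0.37), *Col4a5* (-0.0216 to 0.95), *Col4a6* (-0.16 to 1.37), *Col5a1* (-0.17 to 0.35), *Col6a1* (-0.0397 to 0.53), *Col6a2* (-0.0871 to 1.04), *Col8a1* (-0.23 to 0.87), *Col8a2* (-0.16 to 1.25), *Col14a1* (-0.16 to 0.56), *Col18a1* (-0.04 to 0.53), *Col20a1* (-0.20 to 0.04), *Col22a1* (-0.14 to 0.47), *Col27a1* (-0.29 to 0.14), *Col4a4* (-0.13 to 0.80) and *Col7a1* (-0.08 to 0.60). Between WT tissues they were *Col4a1* (-0.27 to 0.00335) and *Col6a5* (-2.49 to 2.17). With 3 mice a group and chains of few counts, a chain that was not called may still differ.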
